A study of Homo sapiens with 12 samples.

Results

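The alpha and beta tubulin isotypes are the genes whose proteins pair into the heterodimers from which microtubules are built, and 10 of them were followed here in entinostat-treated medulloblastoma cells: the alpha tubulins TUBA1A, TUBA1B, TUBA1C and TUBA4A and the beta tubulins TUBB, TUBB2A, TUBB2B, TUBB3, TUBB4B and TUBB6. They were chosen by gene symbol, as all probe sets that the array annotation assigned to one of these 10 genes alone, which gave 20 of the 54613 probe sets tested and 10 of the 19775 genes measured. One further probe set, annotated to both TUBB2A and TUBB2B, names neither gene and was left out of all counts. HD-MB03, a line derived from a group 3 medulloblastoma that carries an amplification of MYC, was grown in RPMI medium with fetal calf serum and profiled on Affymetrix U133 Plus 2.0 arrays. The 4 groups were cells given 1 µM entinostat, an inhibitor of class I histone deacetylases, for 48 h, cells given the solvent DMSO for 48 h, cells given 1 µM entinostat for 24 h, and cells given DMSO for 24 h, with 3 biological replicates in each and 12 arrays in all. The labels also call the DMSO cells untreated. All groups share the one cell line, so the comparisons describe these cells and no other tumour.

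Vertebrates carry several alpha and several beta tubulin genes, whose proteins are nearly alike along most of their length and differ mainly in the acidic tail at the C terminus, where enzymes add or remove tyrosine, glutamate and glycine. Some isotypes are made in almost every cell, while others are characteristic of neurons, where TUBB3 is a widely used marker and TUBA1A and TUBB2B are abundant during brain development. Tubulin mRNA levels are also held in check by free tubulin, through recognition of the newly made protein by TTC5 and decay of the mRNA being translated.

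Intensities below are the deposited values on the linear scale. Differences were tested with limma across all 54613 probe sets as log2 fold changes (log2FC), with Benjamini-Hochberg adjustment over all of them, and a probe set is said to have risen, fallen or passed the test where the adjusted p was under 0.05. An adjusted p below is always this value. Of the 20 tubulin probe sets, 14 carry the suffix _x_at and 1 the suffix _s_at, which mark probes that can bind transcripts of more than one gene, so a value given for an isotype can contain signal from another one. The intensity of a probe set depends on its probes, so the isotypes were not ranked by level, and the sums over marker genes below only set groups of arrays side by side.

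The arrays were of even brightness, with medians of 80.69 to 81.92, and the first 2 principal components of all probe sets held 64% and 9.42% of the variance. Of 8 markers of MYC-amplified group 3 tumours, MYC rose at 48 h (log2FC 0.17), and IMPG2 (-1.52), GABRA5 (-2.12) and CRX (-0.44) fell. At 24 h, IMPG2 (-2.02), GABRA5 (-1.78) and OTX2 (-0.22) fell. MYC averaged 12998 in entinostat and 11546 in DMSO at 48 h, and OTX2 6614 in entinostat and 6995 in DMSO, while NPR3 and EYS lay below the array medians in every group. Of 5 markers of WNT and SHH tumours, SFRP1 rose at both times (0.31 at 48 h and 0.40 at 24 h) and WIF1 at 24 h (0.22), with group means of all 5 at or below 135.6. None of the 5 fibroblast markers and none of the 5 endothelial and blood markers passed the test at either time, and no group mean among these 10 markers was above 113.1. Of the 3 glial markers measured, MBP fell at 48 h (-0.44), GFAP and AQP4 did not pass (-0.06 each), and none passed at 24 h. Together they summed to 237.2 to 242.1 in entinostat and 281.8 to 286.6 in DMSO at 48 h. The 3′ minus 5′ control probe sets of ACTB, on the log2 scale, averaged -0.14 in entinostat and -0.07 in DMSO at 48 h, which the exact two-sided permutation test gave p = 0.1, the smallest that 3 against 3 arrays allow. The part of these shifts in the tubulin results was not tested.

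At 48 h, 11 of the 20 tubulin probe sets passed the test between entinostat and DMSO, 3 higher and 8 lower, where 26.1% of all probe sets passed, 12.9% higher and 13.2% lower. At 24 h, 7 passed, 4 higher and 3 lower, where 25.2% of all probe sets passed, 12.8% higher and 12.4% lower. With both times in one additive model, 8 passed, where 32.7% of all probe sets did. The tubulin probe sets are mostly bright, and 19 of the 20 had a mean log2 value of at least 7. Among the 17993 probe sets as bright as that, 52.1% passed at 48 h, 50.1% at 24 h and 60.9% in the additive model. Of the 19 bright tubulin probe sets, 11 passed at 48 h, 7 at 24 h and 8 in the additive model. At 24 h and in the additive model this was a smaller share than among bright probe sets as a whole. The median log2FC of the 20 was -0.11 at 48 h and 0.10 at 24 h, against -0.02 and -0.03 over all probe sets. The isotypes moved in different directions, as the plot of intensities on every array shows: TUBB2B, TUBB2A and TUBA1A were higher at both times, TUBB was lower at both times, TUBA4A and TUBB4B were lower at 48 h, TUBB3 was lower at 48 h and, in 1 of its 2 probe sets, higher at 24 h, and TUBA1B, TUBA1C and TUBB6 did not pass at either time.

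**Figure D1:**
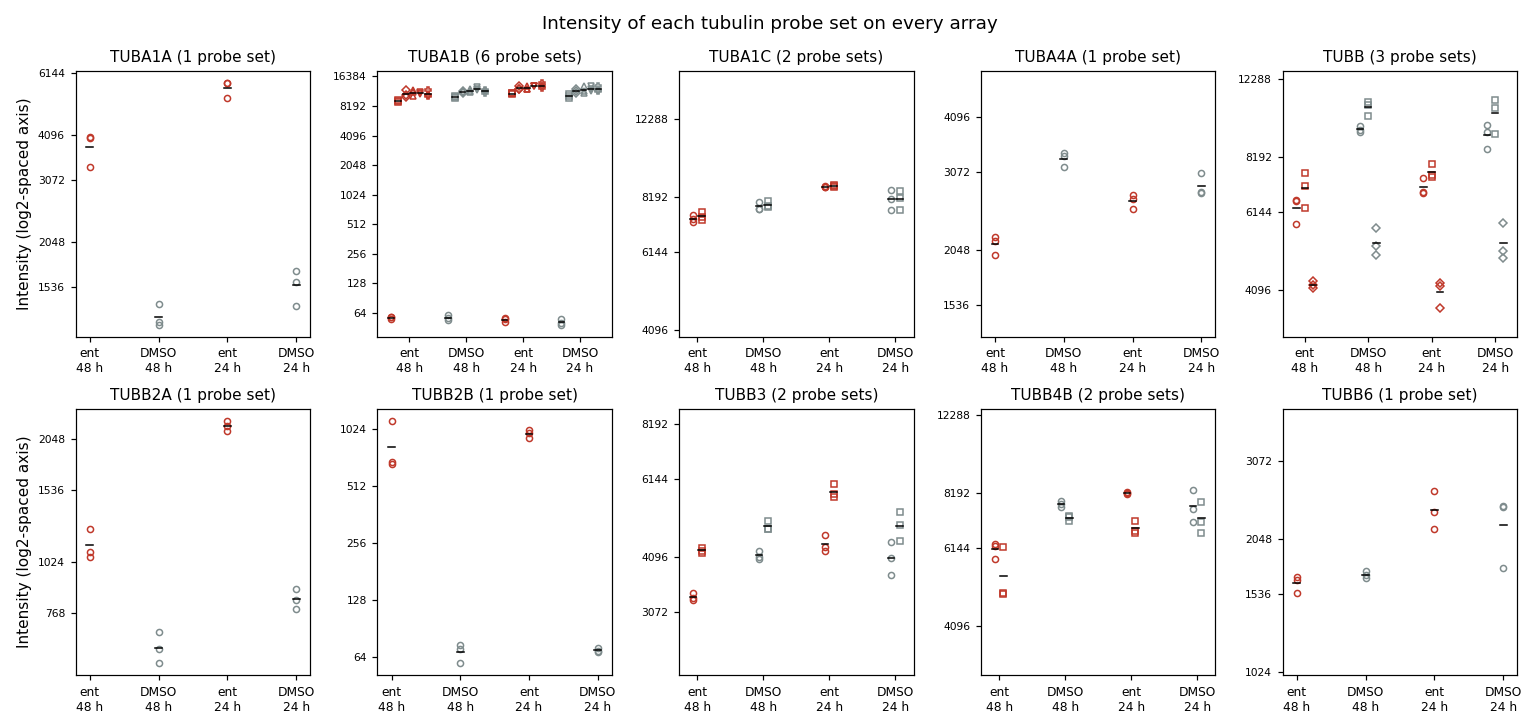
Intensity (log2-spaced axis, own scale in each panel) of every tubulin probe set on each of the 12 arrays, for entinostat (ent, red) and DMSO (grey) at 48 h and at 24 h, with 3 arrays a group. Each marker shape is 1 probe set and black bars are group means; TUBB2B lay at 672 to 1132 in entinostat and 60 to 74 in DMSO at 48 h, with no overlap, while TUBA1B overlapped in most of its probe sets.

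TUBB2B encodes a beta tubulin of developing neurons, and mutations in it cause malformations of the cerebral cortex. Its probe set 214023_x_at measured 672, 1132 and 686 in entinostat at 48 h, against 74, 70 and 60 in DMSO. Its 24 h values were 1017, 974 and 926 in entinostat, against 69, 68 and 71 in DMSO. All 6 DMSO arrays had TUBB2B below the median of their array, and all 6 entinostat arrays were far above it. The rise was 11.9-fold at 48 h (log2 3.57, SE 0.16, adjusted p = 1.52e-08) and 14-fold at 24 h (log2 3.81, SE 0.16, adjusted p = 1.28e-08). These were the largest changes of any tubulin probe set at either time. Because the DMSO signal is close to background, the size of the fold depends on how background is treated, and with 30 units subtracted from every value the log2FC was 4.37 at 48 h and 4.59 at 24 h.

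TUBB2A, a closely related beta tubulin that is also prominent in neurons, lies next to TUBB2B in the RefSeq gene order on chromosome 6. Its probe set 204141_at measured 1084, 1234 and 1051 in entinostat at 48 h, against 689, 626 and 579 in DMSO. The 24 h arrays gave 2203, 2263 and 2144 in entinostat, against 878, 825 and 785 in DMSO. The entinostat arrays were above all DMSO arrays at both times, by 1.78-fold at 48 h (log2 0.83, SE 0.08, adjusted p = 5.08e-06) and 2.66-fold at 24 h (log2 1.41, SE 0.08, adjusted p = 8.38e-08). The probe set shared by TUBB2A and TUBB2B was also higher at both times, by 1.88-fold at 48 h and 2.42-fold at 24 h. These folds are far smaller than those of the TUBB2B probe set.

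TUBA1A is the main alpha tubulin of newly formed neurons, and its mutations cause lissencephaly. Its probe set 209118_s_at measured 3334, 4030 and 4059 in entinostat at 48 h, against 1370, 1223 and 1200 in DMSO. Values at 24 h were 5755, 5732 and 5216 in entinostat, against 1587, 1703 and 1358 in DMSO. The rise was 3.0-fold at 48 h (log2 1.59, SE 0.10, adjusted p = 1.71e-07) and 3.61-fold at 24 h (log2 1.85, SE 0.10, adjusted p = 6.38e-08), with no overlap between treatments.

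The same arrays held other neuronal transcripts at higher levels. Of the 8 neuronal markers listed, 5 rose at both times, among them NEFL and NEFM, which encode neurofilament subunits, and SNAP25, a protein of synaptic vesicle fusion. Of all genes, with 1 probe set a gene, 17.3% rose at 48 h and 18.2% at 24 h. The DMSO means of NEFL (78.2 at 48 h and 73.2 at 24 h) lay below the array medians, so the size of its rise carries the same limit as that of TUBB2B. The 8 markers summed to 1130 to 1438 in entinostat and 682 to 710 in DMSO at 48 h, and to 1402 to 1590 in entinostat and 686 to 777 in DMSO at 24 h. RBFOX3, SYP and DCX passed at neither time, with log2FCs of -0.07, 0.15 and 0.21 at 48 h and -0.10, -0.33 and 0.34 at 24 h, and none of the 8 is at 0 in the files. The part of these markers in the tubulin changes was not tested, and in a bulk culture more cells of one kind and more RNA per cell cannot be told apart.

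TUBB3, the class III beta tubulin used to mark neurons, fell at 48 h in both of its _x_at probe sets, which can contain signal from another isotype. In 1 of them it rose at 24 h. Its probe set 202154_x_at measured 3281, 3311 and 3396 in entinostat at 48 h, against 4107, 4230 and 4064 in DMSO, a fall by 0.31 on the log2 scale (SE 0.06, adjusted p = 0.00258). At 24 h the same probe set measured 4233, 4310 and 4601 in entinostat, against 4076, 3726 and 4439 in DMSO, which overlap, with a log2FC of 0.11 (adjusted p = 0.283). The other probe set, 213476_x_at, passed the test in both directions. It measured 4233, 4192 and 4300 in entinostat and 4742, 4943 and 4745 in DMSO at 48 h, a fall by 0.18 on the log2 scale (SE 0.06, adjusted p = 0.0379). After 24 h it stood at 5597, 5690 and 5986 in entinostat and 4833, 4463 and 5184 in DMSO, a log2FC of 0.26 (SE 0.06, adjusted p = 0.00567). Its fall at 48 h lost the test without any one of the 6 arrays of that time, without DMSO 24 h replicate 1 or without entinostat 24 h replicate 2, where the log2 value lay between -0.19 and -0.16.

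The upstream sequences of the 3 genes that rose together, and of TUBB, which fell, are shown because the same treatment moved these relatives in opposite directions. The 250 bases before the annotated start of each gene are from RefSeq (GRCh38.p14), and all 10 genes matched, with 15 annotated starts in all. Capitals mark matches on either strand to 5 short motifs: the GC box GGGCGG, the CCAAT box CCAAT, the TATA box TATAAA, the E box CACGTG and the cyclic AMP response element TGACGTCA with its shorter core TGACG, which lies inside the full element. The windows are chr6:3227654-3227903 on the minus strand for TUBB2B, chr6:3157545-3157794 on the minus strand for TUBB2A, chr12:49189081-49189330 on the minus strand for TUBA1A, and chr6:30720102-30720351 on the plus strand for the first of the 2 annotated starts of TUBB.
TUBB2B: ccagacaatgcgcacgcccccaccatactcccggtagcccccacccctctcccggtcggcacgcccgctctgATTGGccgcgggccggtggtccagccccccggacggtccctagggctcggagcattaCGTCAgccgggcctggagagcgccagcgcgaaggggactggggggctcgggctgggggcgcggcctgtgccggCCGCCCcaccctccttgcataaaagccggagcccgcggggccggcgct
TUBB2A: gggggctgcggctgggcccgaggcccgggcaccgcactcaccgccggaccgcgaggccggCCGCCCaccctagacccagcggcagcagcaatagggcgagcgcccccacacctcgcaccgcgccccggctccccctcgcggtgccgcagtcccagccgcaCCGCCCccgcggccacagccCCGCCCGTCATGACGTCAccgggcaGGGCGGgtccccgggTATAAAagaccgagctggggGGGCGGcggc
TUBA1A: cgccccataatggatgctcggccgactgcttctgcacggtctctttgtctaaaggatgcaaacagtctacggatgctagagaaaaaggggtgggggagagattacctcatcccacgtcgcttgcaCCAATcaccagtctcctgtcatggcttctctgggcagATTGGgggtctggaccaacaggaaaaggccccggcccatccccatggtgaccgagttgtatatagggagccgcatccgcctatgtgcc
TUBB: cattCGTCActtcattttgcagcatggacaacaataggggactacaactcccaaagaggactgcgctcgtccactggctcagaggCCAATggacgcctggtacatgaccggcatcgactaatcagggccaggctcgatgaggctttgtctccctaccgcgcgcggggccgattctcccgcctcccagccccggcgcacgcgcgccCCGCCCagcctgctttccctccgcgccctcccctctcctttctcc

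None of these motifs was found in all 3 windows of the genes that rose. TUBB2A held 5 GC boxes, a TATA box 30 bases before the start, the full cyclic AMP response element 60 bases before it, and 3 cores, 2 of them inside that element and 1 at 65 bases. TUBB2B held 1 GC box at 48 bases, 1 CCAAT box at 178 bases and 1 core at 121 bases before the start. TUBA1A held 2 CCAAT boxes, at 125 and 88 bases, and no GC box. The TUBB window held 1 GC box at 45 bases, 1 CCAAT box at 165 bases and 1 core at 246 bases, the same 3 kinds as TUBB2B. The window of its other annotated start, not printed, held 5 GC boxes and 1 E box and no CCAAT box or core. Over 35116 windows of 27305 genes, the GC box was found in 42.6%, the CCAAT box in 32.0%, the TATA box in 10.7%, the E box in 6.34%, the full response element in 1.65% and its core in 21.2%. Among the 15 tubulin windows, 9 held a GC box, 9 a CCAAT box, 2 an E box, 4 a core, and 1 each a TATA box and the full element, both in TUBB2A. A match is a description of the sequence only.

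TUBB, the class I beta tubulin made in most cells, fell in all 3 of its probe sets at both times. Its probe set 211714_x_at measured 7544, 6290 and 7040 in entinostat at 48 h, against 10756, 10157 and 10881 in DMSO, which is 1.53-fold lower (log2 -0.61, SE 0.08, adjusted p = 7.68e-05). The corresponding 24 h arrays read 7454, 7362 and 7907 in entinostat, against 10543, 9250 and 11034 in DMSO, which is 1.35-fold lower (log2 -0.44, SE 0.08, adjusted p = 0.00113). The groups did not overlap in any of the 3 probe sets at either time. The log2FC of 209026_x_at was -0.60 (adjusted p = 1.9e-05) for 48 h and -0.39 (adjusted p = 0.000582) for 24 h. That of 212320_at, whose suffix marks probes designed to be unique, was -0.31 (adjusted p = 0.00992) for 48 h and -0.36 (adjusted p = 0.00403) for 24 h. The array values behind it were 4207, 4136 and 4282 in entinostat and 4916, 5142 and 5652 in DMSO at 48 h.

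TUBB4B, a class IV beta tubulin of most cells that is also used in cilia, fell at 48 h in both probe sets. The first, 208977_x_at, measured 5793, 6267 and 6213 in entinostat at 48 h, against 7606, 7856 and 7735 in DMSO, which is 1.27-fold lower (log2 -0.35, SE 0.06, adjusted p = 0.000993). By 24 h it measured 8212, 8176 and 8121 in entinostat, against 7534, 7021 and 8295 in DMSO, with a log2FC of 0.10 (adjusted p = 0.271). The treatments were apart at 48 h and overlapped at 24 h. The second, 213726_x_at, measured 4828, 6182 and 4862 in entinostat at 48 h, against 7222, 7064 and 7234 in DMSO (log2 -0.45, SE 0.09, adjusted p = 0.00229), and its log2FC at 24 h was -0.07 (adjusted p = 0.65).

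TUBA4A, an alpha tubulin whose gene does not encode the C-terminal tyrosine that other alpha tubulins carry, fell at 48 h. Its probe set 212242_at measured 2142, 1998 and 2195 in entinostat at 48 h, against 3336, 3390 and 3150 in DMSO, which is 1.56-fold lower (log2 -0.64, SE 0.06, adjusted p = 5.67e-06). Readings at 24 h were 2531, 2663 and 2723 in entinostat, against 2771, 2748 and 3050 in DMSO, with a log2FC of -0.11 (adjusted p = 0.22). The 24 h arrays do not overlap either, but they lie close together.

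TUBA1B and TUBA1C, the alpha tubulins made in most dividing cells, passed the test at neither time in any of their 8 probe sets. The 5 bright TUBA1B probe sets lay between 9049 and 14104 over all arrays, and their log2FCs were -0.14 to -0.05 at 48 h and 0.07 to 0.12 at 24 h. The nearest to the threshold was 201090_x_at at 48 h, with 9456, 9049 and 9276 in entinostat and 10317, 10038 and 9913 in DMSO (log2 -0.12, 95% confidence interval -0.23 to -0.02, adjusted p = 0.0911). This probe set and 212639_x_at did not overlap between treatments, with entinostat lower at 48 h and higher at 24 h. At 48 h, each passed under 2 of the other settings tried. The sixth TUBA1B probe set, 1565668_at, lay between 48 and 61 on every array, below the array medians, and says little of the transcript. The 2 probe sets of TUBA1C had log2FCs of -0.09 and -0.09 at 48 h (95% confidence intervals -0.20 to 0.02 and -0.19 to 0.02) and of 0.10 and 0.10 at 24 h. Neither overlapped between treatments, with entinostat lower at 48 h and higher at 24 h. Of all probe sets, 37.9% did not overlap at 48 h and 38.9% at 24 h.

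TUBB6, the class V beta tubulin, also passed at neither time. Its probe set 209191_at measured 1550, 1655 and 1679 in entinostat at 48 h, against 1699, 1672 and 1732 in DMSO (log2 -0.06, 95% confidence interval -0.31 to 0.18, adjusted p = 0.759). Its 24 h arrays measured 2157, 2357 and 2627 in entinostat, against 2421, 1758 and 2435 in DMSO (log2 0.12, 95% confidence interval -0.12 to 0.36, adjusted p = 0.508). The groups overlapped at both times, and the intervals leave room for changes of some size either way.

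**Figure D2:**
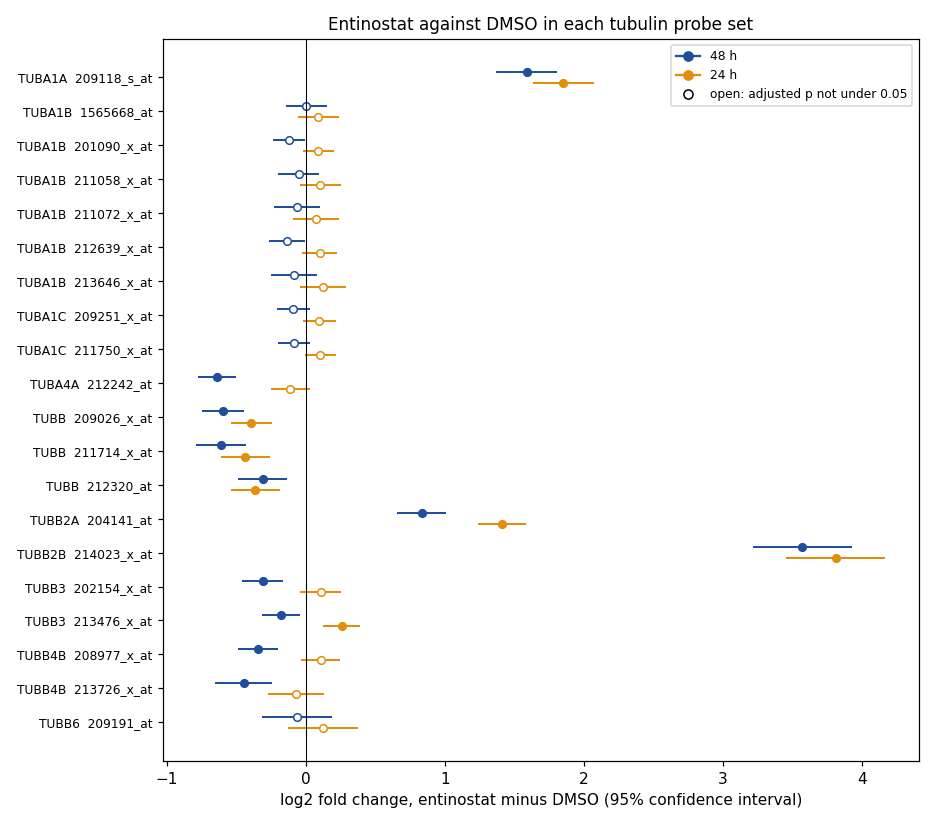
Log2FC of entinostat over DMSO for each of the 20 tubulin probe sets (points) with its 95% confidence interval (lines) at 48 h (blue) and 24 h (orange), from limma on 12 arrays. Filled points passed the adjusted p of 0.05 and open ones did not; TUBB2B stood at 3.57 and 3.81, and the falls of TUBB, TUBB3, TUBB4B and TUBA4A at 48 h lay between -0.64 and -0.18.

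The isotypes were next compared between 48 h and 24 h within each treatment. In entinostat, 13 of the 20 probe sets were lower at 48 h than at 24 h and none was higher, where 7.19% of all probe sets passed in either direction and 3.88% were lower. Among probe sets as bright, 16.8% passed and 9.18% were lower. These 13 probe sets belong to 8 of the 10 genes, and the probe sets of 1 gene are not independent of each other. In DMSO, limma called none of the 20 (5 at an unadjusted p under 0.05), where 0.359% of all probe sets passed. The 48 h and 24 h arrays did not overlap in 16 probe sets in entinostat, all lower at 48 h, against 23.8% of all probe sets (12.1% lower), and in 3 in DMSO, against 16.6%.

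TUBB2A had the largest difference between the times in entinostat among these 20, with lower values at 48 h (log2 -0.97, SE 0.08, adjusted p = 5.61e-05). Its difference in DMSO was log2 -0.40 (adjusted p = 0.056), the smallest adjusted p of the 20 in DMSO, and its DMSO arrays did not overlap between the times. This narrowly missed the threshold, and under some other settings 1 tubulin probe set passed for time in DMSO. TUBA1A was lower at 48 h in entinostat by a log2 value of -0.55 (SE 0.10, adjusted p = 0.00538) and TUBB6 by one of -0.54 (SE 0.11, adjusted p = 0.0119). In DMSO the same 2 genes had log2 differences of -0.29 (adjusted p = 0.262) and -0.36 (adjusted p = 0.219), so both treatments had lower estimates at the later time. Without entinostat 24 h replicate 3, TUBB6 missed the threshold, with a log2 difference of -0.47 and an adjusted p of 0.0512.

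TUBA4A, TUBB3 and TUBB4B were lower at 48 h in entinostat with log2 differences between -0.44 and -0.32, while their DMSO differences lay between -0.01 and 0.21. TUBA1C was lower in both probe sets (log2 -0.24 and -0.23), and 3 of the 6 probe sets of TUBA1B were lower (log2 -0.24, -0.24 and -0.27). The call of TUBA1B 212639_x_at was lost without any 1 of the entinostat 24 h arrays or of the entinostat 48 h replicates 1 and 2, and that of 213646_x_at without any 1 of these, of the DMSO 48 h arrays or of DMSO 24 h replicate 3. The call of TUBB4B 213726_x_at was lost without any 1 of the entinostat 24 h arrays or of the entinostat 48 h replicates 1 and 3. TUBB did not pass in any probe set, and TUBB2B did not pass (log2 -0.27, adjusted p = 0.412). In TUBB2B the 48 h array of replicate 2 stood apart at 1132, and without it the difference was log2 -0.52 with an adjusted p of 0.00658.

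**Figure D3:**
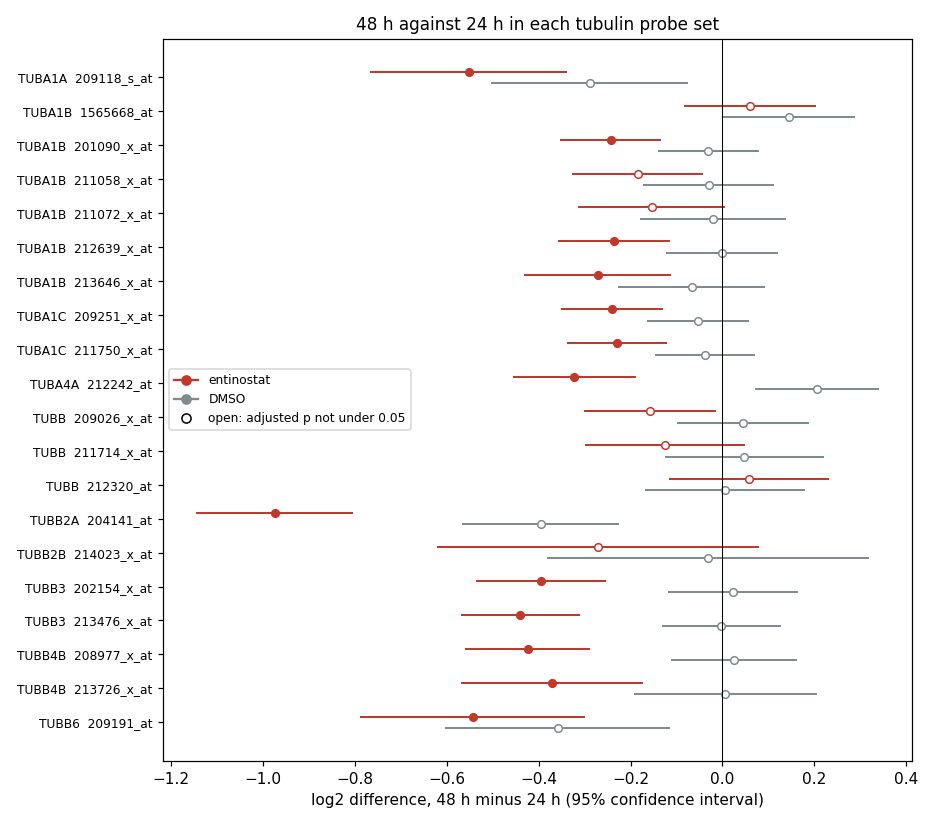
Log2 difference of 48 h minus 24 h for each of the 20 tubulin probe sets (points) with its 95% confidence interval (lines) in entinostat (red) and DMSO (grey), from limma on 12 arrays. Filled points passed the adjusted p of 0.05 and open ones did not; 13 probe sets were lower in entinostat, as far as -0.97 in TUBB2A, and none passed in DMSO.

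The interaction asks whether the entinostat effect itself differed, and is the log2FC at 48 h minus that at 24 h. It passed in 5 of the 20 probe sets, all with a negative sign, where 1.21% of all probe sets passed (0.646% with a negative sign) and 2.87% of those as bright. The estimate was negative in 19 of the 20, with a median of -0.209, against 0.003 over all probe sets and -0.014 among those as bright. Several of the 20 belong to 1 gene or may bind the same transcripts, so the 19 are not separate results. The 5 were TUBA4A 212242_at (-0.53, SE 0.09, adjusted p = 0.0156), TUBB2A 204141_at (-0.58, SE 0.11, adjusted p = 0.0291), TUBB3 202154_x_at (-0.42, SE 0.09, adjusted p = 0.0494), TUBB3 213476_x_at (-0.44, SE 0.08, adjusted p = 0.0291) and TUBB4B 208977_x_at (-0.45, SE 0.09, adjusted p = 0.032). TUBA4A kept its call without each single array in turn, while the other 4 lost it without most of them. The call held only without DMSO 24 h replicate 1, DMSO 48 h replicate 3 or entinostat 48 h replicate 2 in TUBB2A and only without DMSO 24 h replicate 3 in TUBB3 202154_x_at. It held only without DMSO 24 h replicate 3 or entinostat 24 h replicate 1 in TUBB3 213476_x_at, and only without DMSO 24 h replicate 3 or entinostat 48 h replicate 2 in TUBB4B 208977_x_at. The interaction did not pass for TUBB2B (-0.24, adjusted p = 0.754), TUBA1A (-0.26, adjusted p = 0.476) or any probe set of TUBB.

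The probe sets of 1 gene were also set against each other. Across 21 pairs of probe sets of the same gene, the difference of their treatment effects, averaged over both times, was between -0.18 and 0.14 on the log2 scale. By an exact two-sided permutation test with 400 rearrangements within the times, none passed after Benjamini-Hochberg adjustment over the pairs. The TUBB3 pair differed by -0.14 (exact p = 0.005, the smallest the design allows, adjusted p = 0.105). A lone pair at that smallest p could not pass over 21 pairs, so its failure to pass decides nothing. In TUBB the fall of 211714_x_at was larger than that of 212320_at by -0.18 (exact p = 0.05, adjusted p = 0.315), which the 48 h arrays carried (-0.30, against -0.07 at 24 h). Pearson correlations across the 12 arrays, which share the 4 groups, were 0.76 to 0.96 among the bright TUBA1B probe sets and 0.76 to 0.99 between those and the TUBA1C probe sets. The TUBB3 probe sets correlated at 0.898 with each other and at 0.575 to 0.974 with those of TUBB4B. The highest, 0.974, was between TUBB3 202154_x_at and TUBB4B 208977_x_at. Since all of these are _x_at sets, how far they measure separate genes was not tested. TUBA1A correlated with TUBB2B at 0.97 and with TUBB2A at 0.94.

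Genes outside the tubulins whose values followed a tubulin most closely over the 12 arrays are given as a description. Among 19746 genes, those nearest to TUBB2B were KLF4 and HEY1, both transcription factors, with Pearson correlations of 0.998 each. KLF4 had log2FCs of 1.65 at 48 h and 1.83 at 24 h, and HEY1 of 2.18 and 2.33. Nearest to TUBA1A was MAD2L2 (0.996), nearest to TUBB2A was TIPARP (0.994), and nearest to TUBB was SPDL1 (0.987), which helps to load dynein at kinetochores. The 12 arrays behind these correlations share 4 groups that differ strongly.

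Genes beside the tubulins on the chromosome varied. TUBB2A and TUBB2B are flanked in the RefSeq order by BPHL, with log2FCs of 0.24 at 48 h and 0.34 at 24 h, and PSMG4, with -0.24 and -0.70, all 4 past the test. TUBA1A lies between TUBA1B and TUBA1C, neither of which passed, and PRPH, which encodes the neuronal intermediate filament peripherin and lies on the far side of TUBA1C, rose (0.91 at 48 h and 1.01 at 24 h). Beside TUBB, FLOT1 and IER3 rose, by log2FCs of 0.59 and 3.45 at 48 h, while on the other side MDC1 did not pass (0.03) and NRM rose (0.17 at 48 h and 0.29 at 24 h).

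Other genes of the tubulin and microtubule machinery were followed in 6 lists, which held 126 genes, 116 of them measured, each by its brightest probe set. Of all genes read that way, 34% passed at 48 h (17.3% higher and 16.6% lower) and 33.2% at 24 h (18.2% higher and 15.0% lower). The other alpha and beta tubulins, TUBA8, TUBAL3, TUBB1 and TUBB4A, passed at neither time, and all 4 had a mean log2 value under 7. In the list of gamma, delta and epsilon tubulin and their complexes, 1 of 20 genes rose and 5 fell at 48 h, and 2 rose and 4 fell at 24 h. HAUS1 and TUBGCP2, subunits of the augmin and gamma-tubulin complexes that start new microtubules, fell (-0.71 and -0.38 at 48 h), and HAUS2 rose (0.24). The median log2FC of this list was -0.17 at 48 h and 0.00 at 24 h, against -0.01 and -0.02 over all genes.

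Of 21 genes for tubulin folding and mRNA autoregulation, 4 rose and 6 fell at 48 h, and 4 rose and 4 fell at 24 h. TBCE, a cofactor that assembles the alpha and beta subunits into the dimer, averaged 1798 ± 212 in entinostat and 1093 ± 112 in DMSO at 48 h (SD, n = 3 each), a log2FC of 0.71. VBP1 and PFDN1, both subunits of the prefoldin chaperone, fell (-0.45 and -0.32 at 48 h), and TBCC rose (0.30). TTC5, the sensor of tubulin autoregulation, did not pass (-0.15 at 48 h and -0.01 at 24 h). The medians of the list were -0.08 at 48 h and -0.01 at 24 h.

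Of 26 tubulin-modifying enzymes, 3 rose and 7 fell at 48 h, and 4 rose and 1 fell at 24 h. TGM2, a transglutaminase that can crosslink tubulin, rose by a log2FC of 1.18 at 48 h and 1.59 at 24 h, and TTLL1, the catalytic subunit of a polyglutamylase, by 0.38 and 0.74. TTLL12, a member of the tubulin tyrosine ligase family, fell (-0.90 and -1.05). The acetyltransferase ATAT1 (-0.43) and the deacetylase HDAC6 (-0.33) both fell at 48 h and passed at that time alone. The last 2 are named after their values were seen. The median of the list was -0.02 at 48 h and -0.05 at 24 h.

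Among 21 structural and neuronal microtubule-associated proteins, 8 rose and 3 fell at 48 h, and 8 rose and 2 fell at 24 h, with medians of 0.21 at both times. MAP2 and DCX of this list, and STMN2 of the next, are also among the neuronal markers above, so they are not separate results. MAP2, which binds microtubules in dendrites, averaged 149 ± 32.2 in entinostat and 53 ± 1.15 in DMSO at 48 h, and 182 ± 33.4 in entinostat and 51.3 ± 2.26 in DMSO at 24 h (SD, n = 3 each). MAPT, the axonal protein tau, averaged 291 ± 35.2 in entinostat and 108 ± 3.77 in DMSO at 48 h (log2 1.43), and its log2FC at 24 h was 1.13. MAP4, the form found outside neurons, fell (-0.36 at 48 h and -0.22 at 24 h), as did CAMSAP1, a minus-end binding protein (-0.66 and -0.48).

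Of 24 end-binding, polymerizing and severing proteins, 6 rose and 4 fell at 48 h, and 7 rose and 2 fell at 24 h, with medians of -0.02 and 0.08. The list holds 4 stathmins, which bind free tubulin dimers. STMN2, a neuronal stathmin, rose by a log2FC of 0.97 at 48 h and 0.47 at 24 h, and STMN1, the stathmin of dividing cells, fell (-0.97 and -0.60). STMN1 averaged 1448 ± 121 in entinostat and 2859 ± 418 in DMSO at 48 h (SD, n = 3 each). STMN3 had log2FCs of -0.12 at 48 h and -0.24 at 24 h and passed at 24 h alone, and STMN4 passed at neither time (-0.08 and -0.07). The DMSO means of STMN2 (59.8 at 48 h), TGM2 (72) and MAP2 lay below the array medians, so the sizes of their folds carry the same limit as that of TUBB2B. MAPRE2, a plus-end binding protein, rose (0.58 and 0.89). Between 48 h and 24 h in entinostat, 8 of the 10 tubulin isotypes were lower and none was higher with 1 probe set a gene, where 10.3% of all genes passed, and in this list 1 of 24 genes was higher and 4 were lower.

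**Figure D4:**
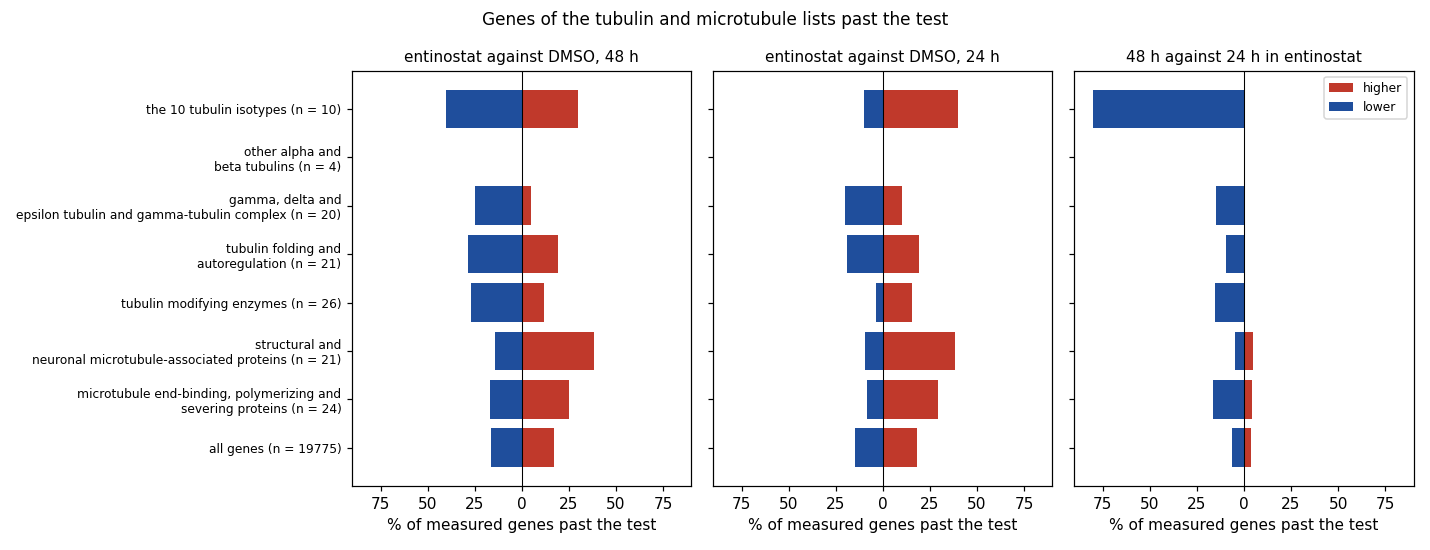
Share of measured genes (x axis, %) that passed an adjusted p of 0.05 as higher (red, right) or lower (blue, left) for the 10 tubulin isotypes, the 6 lists and all genes, with 1 probe set a gene. The panels give entinostat against DMSO at 48 h and at 24 h and 48 h against 24 h in entinostat, where 8 of the 10 isotypes were lower and none was higher.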

How the data were processed

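Total RNA of HD-MB03 cells was labelled with biotin and hybridized to Human Genome U133 Plus 2.0 arrays. The authors normalized the arrays with GCRMA, per the labels and methods, and state a log2 transformation, but the deposited values run between 36.7 and 20146, which fits linear intensities, so log2 was taken here. No scanner files or detection calls were used, and whether a value is above background is not given in the sources used here. The number of arrays limits the precision.

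The table held 12 arrays in 4 groups of 3. After 62 control probe sets were left out, 54613 remained, 41091 with 1 gene symbol, 1801 with several and 11721 with none in the platform annotation, which can be old. 2 empty cells were treated as missing. A linear model with 1 coefficient a group was fitted with limma 3.58.1 in R 4.3.3, and an additive model of treatment and time gave the effect over both times. p-values were adjusted by Benjamini-Hochberg over all probe sets. The fit was tested on simulated data. Probe set pairs were compared by exact permutation in Python 3.11.15.

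The members and the gene lists were chosen with earlier results of these data known. Every probe set of the members is described. Of each list, up to 2 rises and 2 falls were named, the largest over both times among genes past the test at both times whose arrays did not overlap, besides genes named for their role. The 3 genes with the highest correlation to each isotype were sought. The labels number the replicates in every group, and these were not taken to pair the arrays, so no block was used. The methods call the replicates biological, but how separate the cultures were is not given in the sources used here, so p-values measure only the spread between these samples. Upstream sequences and gene order are from RefSeq. Alternatives changed the normalization, the background, the filter, the thresholds, the probe sets per gene, the block and each array.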

Additional observations from a re-analysis of the deposited data

Results flagged for a closer look

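5 tubulin probe sets stood out because the entinostat effect differed between 48 h and 24 h by limma's test of the difference itself. Of all probe sets, 1.21% passed this test, and 2.87% of those with a mean log2 of at least 7. All but TUBA4A lost the call without most single arrays. With 30 subtracted, or at an adjusted p under 0.01, 0 of the 20 passed. The TUBB3 and TUBB4B probe sets are _x_at sets and may share signal. TUBA4A 212242_at had a log2FC of -0.64 at 48 h and -0.11 at 24 h, a difference of -0.53. TUBB2A 204141_at had 0.83 at 48 h and 1.41 at 24 h, a difference of -0.58. TUBB3 had -0.31 at 48 h and 0.11 at 24 h in 202154_x_at, a difference of -0.42, and -0.18 at 48 h and 0.26 at 24 h in 213476_x_at, a difference of -0.44. TUBB4B 208977_x_at had -0.35 at 48 h and 0.10 at 24 h, a difference of -0.45. In TUBB3 213476_x_at every entinostat array was below every DMSO array at 48 h, and every entinostat array was above every DMSO array at 24 h. The same was so in TUBA1B 201090_x_at and 212639_x_at and in both TUBA1C probe sets, whose interaction did not pass. These TUBA1B and TUBA1C probe sets are _x_at sets that correlated at 0.93 to 0.996, so they are not separate results. Of all probe sets, 37.9% did not overlap at 48 h and 38.9% at 24 h. The share that did so at both times with opposite signs was not counted.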

How the results depend on the processing

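Counts of tubulin probe sets past the test are given here for the settings that moved them by over 1.5 times. With 30 subtracted from every value, 0 passed for the interaction and 7 for 48 h against 24 h in entinostat. Over all probe sets, that setting took the interaction calls from 660 to 138 and the time calls from 3926 to 2506. At an adjusted p under 0.01, 0 and 6 of the tubulin probe sets passed these tests, where 116 and 1554 of all probe sets did. With an absolute log2FC of at least 0.5 also required, 6 passed at 48 h, 3 at 24 h, 4 over both times, 2 for the interaction and 3 for time in entinostat. Of all 54613 probe sets, 5544, 5073, 5030, 402 and 786 passed these, in that order. In DMSO, 1 probe set passed for time under normexp background correction, among probe sets with a mean log2 of at least 7, under the replicate block and, with genes in place of probe sets, as the mean of their probe sets. The 5 probe sets without _x_at or _s_at gave 3 calls at 48 h, 2 at 24 h, 3 over both times, 2 for the interaction and 3 for time in entinostat. Among all probe sets, of any suffix, 26.1%, 25.2%, 32.7%, 1.21% and 7.19% passed these, in that order. With 10 genes in place of 20 probe sets, each read by its brightest probe set or by the mean of its probe sets, 7 passed at 48 h, 5 over both times and 8 for time in entinostat. Over all 19775 genes, 6714, 8040 and 2036 passed these by the brightest probe set, and 7176, 8503 and 2335 by the mean. By the probe set of the strongest effect, 7 passed at 48 h, 4 at 24 h, 3 for the interaction and 7 for time in entinostat. Over all genes, 7568, 7409, 347 and 2006 did. Here fewer units were counted. For the other settings the cause was not tested.

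Without each array in turn, 10 to 11 probe sets passed at 48 h, 7 at 24 h, 7 to 8 over both times, 1 to 4 for the interaction, 0 to 1 for time in DMSO and 9 to 13 for time in entinostat, with the lone pair left in a group assumed to vary like the others. The interaction calls over all probe sets also dropped, to 210 to 502 of 660. With the replicate number as a block, 11 passed at 48 h, 7 at 24 h, 8 over both times, 4 for the interaction and 12 for time in entinostat. Of all probe sets, 14432, 14001, 17697, 722 and 4230 did, in that order. The block took the call from the interaction of TUBB3 202154_x_at (adjusted p = 0.0515) and from the time difference of TUBA1B 213646_x_at in entinostat (adjusted p = 0.0533). A pairing by number was not adopted, since the deviations of same-numbered arrays correlated above 0.1 in only 3 of 6 pairs (-0.06 to 0.20). At 24 h each entinostat array correlated best with the DMSO array of its own number, and at 48 h replicate 1 alone did. No value of a single probe set reversed a call, in 960 values from left-out arrays (68 lost and 3 gained the call) or in 616 from the other settings (16 lost and 4 gained). Values near the low end of the arrays, such as TUBB2B in DMSO and TUBA1B 1565668_at, have no detection call, and the number of arrays limits the precision.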
